A study of Drosophila melanogaster with 3 samples.

Results

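The 200 strongest regions listed for the Drosophila factor Nautilus (Nau) were described here, out of a list of 3767 regions. The authors had thresholded that list by the irreproducible discovery rate (IDR), a measure of how well replicates rank the same places. The 200 regions were chosen by the signal value, the authors' deposited measure of enrichment. The list was sorted on it and the first 200 were kept. Signal, rank, width and q value therefore describe these regions and test nothing. What the choice did not use is where the summits (the base of highest signal in a region) lie, which genes and sequences are there, and what the surrounding bases are.

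All libraries came from 1 group, whole Drosophila melanogaster embryos of both sexes, 4 to 24 h old, of 1 transgenic line in which nau carries GFP at its C-terminal end. Chromatin was broken by sonication into pieces of 200 to 800 bp, and an antibody to GFP was used for immunoprecipitation (ChIP), per the sample descriptions, although the antibody label names nau. There were 3 biological replicates and no embryos without the tagged protein, so the comparisons here are among genomic places of 1 condition. In whole embryos a strong region can come from many cells or from strong binding in few, and these cannot be told apart. Without embryos lacking the tagged protein, enrichment that does not depend on it cannot be told apart from its binding either.

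Nau is the only fly member of the MyoD family, basic helix-loop-helix (bHLH) factors that act in the identity and differentiation of muscle. Such factors bind DNA as dimers with an E protein, called Daughterless in flies, and recognise the E-box CANNTG, with CAGCTG as a form that MyoD is known to prefer. Muscle founder cells are a small share of the cells in an embryo.

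The sequences around the strongest summits show what is at the top of the list. The windows below reach 100 bp to either side of the summit on the dm6 build, are read from the RefSeq genome of the same release and are given 5′ to 3′. They belong to the first 3 regions of the list. Capitals mark the E-box CAGCTG and the pair of overlapping words GGCGTA and CTACGC, whose reverse complements are TACGCC and GCGTAG and which are described with the sequence scan.
CG11050, rank 1, chr2L:6612606-6612806, plus strand: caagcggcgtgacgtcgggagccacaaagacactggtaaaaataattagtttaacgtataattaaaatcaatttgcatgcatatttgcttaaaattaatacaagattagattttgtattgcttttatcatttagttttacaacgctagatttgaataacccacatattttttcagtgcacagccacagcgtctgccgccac
Ugalt, rank 2, chrX:2703784-2703984, plus strand: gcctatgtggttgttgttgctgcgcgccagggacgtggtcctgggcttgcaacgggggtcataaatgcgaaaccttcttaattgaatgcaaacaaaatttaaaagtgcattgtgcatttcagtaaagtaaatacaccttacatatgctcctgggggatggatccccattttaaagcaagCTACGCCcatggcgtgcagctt
ush and cbt, rank 3, chr2L:480954-481154, plus strand: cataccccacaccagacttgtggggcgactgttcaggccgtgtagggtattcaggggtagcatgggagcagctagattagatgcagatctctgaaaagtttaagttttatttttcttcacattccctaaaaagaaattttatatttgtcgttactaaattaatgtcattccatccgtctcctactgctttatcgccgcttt
The window at CG11050 held none of these words, and neither did that at ush and cbt. The window at Ugalt held 1 copy of the joined word CTACGCC and no CAGCTG. GC content was 35.3%, 46.8% and 41.3% in the 3 windows.

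The next sequences show where this form of the E-box did occur. They are stretches around CAGCTG, in capitals, at the 4 strongest regions holding it that could be printed. CAGCTG is its own reverse complement, so it reads the same on both strands.
Lrch, rank 33, chr2L:17378933-17378974, plus strand: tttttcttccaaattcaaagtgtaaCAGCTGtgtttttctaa
Reph, rank 38, chr2L:3804716-3804771, plus strand: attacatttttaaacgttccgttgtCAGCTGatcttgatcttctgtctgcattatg
CG8360 and CG8372, rank 40, chr2L:8213088-8213120, plus strand: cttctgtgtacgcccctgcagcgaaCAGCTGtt
RpS27 and Nup37, rank 66, chr3R:25247503-25247558, plus strand: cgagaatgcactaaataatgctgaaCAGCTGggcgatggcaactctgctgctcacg
The first region to hold the E-box was ranked 33, so that none of the 32 stronger regions had CAGCTG within 100 bp of the summit.

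The hexamer GGCGTA had the smallest p of all hexamers when the 200 regions were set against the rest of the list. The stretches below are aligned on it, each read along the strand on which it occurs, with the hexamer in capitals. They belong to the 8 strongest printable regions that hold it.
Ugalt, rank 2, chrX:2703944-2703983, minus strand: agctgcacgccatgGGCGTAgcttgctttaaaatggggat
CG31145, rank 11, chr3R:23669773-23669812, plus strand: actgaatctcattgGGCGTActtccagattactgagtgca
CG9663 and CG3277, rank 25, chr2L:3302213-3302252, minus strand: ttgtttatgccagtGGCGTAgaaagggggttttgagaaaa
Tcs5 and CHMP2B, rank 26, chr3L:5139548-5139587, minus strand: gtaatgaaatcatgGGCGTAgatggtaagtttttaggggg
CG8360 and CG8372, rank 40, chr2L:8213076-8213115, minus strand: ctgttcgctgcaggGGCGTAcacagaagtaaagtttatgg
Tlk, rank 43, chrX:3742107-3742146, plus strand: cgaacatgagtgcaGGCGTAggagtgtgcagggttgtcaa
CG5611 and Mtl, rank 53, chr3R:27636066-27636105, plus strand: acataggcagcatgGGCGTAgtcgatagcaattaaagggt
RpL7 and Ripalpha, rank 59, chr2L:10201068-10201107, plus strand: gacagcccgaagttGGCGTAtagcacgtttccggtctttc
A G followed the hexamer at Ugalt, CG9663, Tcs5, Tlk and CG5611, which gives the joined word. In 6 of these 8 windows the hexamer lay on the 5′ side of the summit by 62 to 98 bp. It lay 30 bp on that side at CG9663 and 32 bp on the 3′ side at RpL7.

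The signal value fell from 2783 at the first region to 1174 at rank 50 and to 747.2 at rank 200, with a median of 955 over the 200 regions. The values ran on across the limit at rank 200 without a break. The last 5 regions inside it, at CG44286 and CG8788, dnr1, Eno, mam and sbb, had 753.3, 753.0, 750.8, 750.7 and 747.2. Of the first 5 outside it, those at Eip75B, RpL34a and Trmt61, baz and Btk had 746.7, 746.6, 740.8 and 740.7. All 200 regions shared the highest −log10 q value of the list, 3.67, and so did 2126 of the other 3567, so the q value orders none of them. Their median width was 412 bp (quartiles 376 and 464, range 277 to 1041). For the rest the median and the upper quartile were both 460 bp and the lower quartile was 253 bp. On the older build dm3 the 200 strongest regions fell on the chromosome arms in similar numbers, with 54 on 2L and 28 on 3L where dm6 had 53 and 28.

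The replicates had helped to make the list, so their values are given as description. In their own lists the strongest region, in an intron of CG11050 at chr2L:6612430-6612939, had signal values of 870, 849 and 1085 in replicates 1, 2 and 3. The region at Ugalt (chrX:2703664-2704086), a UDP-galactose transporter gene, had 929, 711 and 1097. That at ush and cbt (chr2L:480566-481368) had 822, 758 and 885. Replicate 3 gave the highest value at each of these, while replicate 2 gave the lowest, and the order of the 3 regions differed between replicates. Across the 193 regions seen in all replicates, the coefficient of variation of the signal had a median of 14.2% (range 1.39 to 45).

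**Figure D1:**
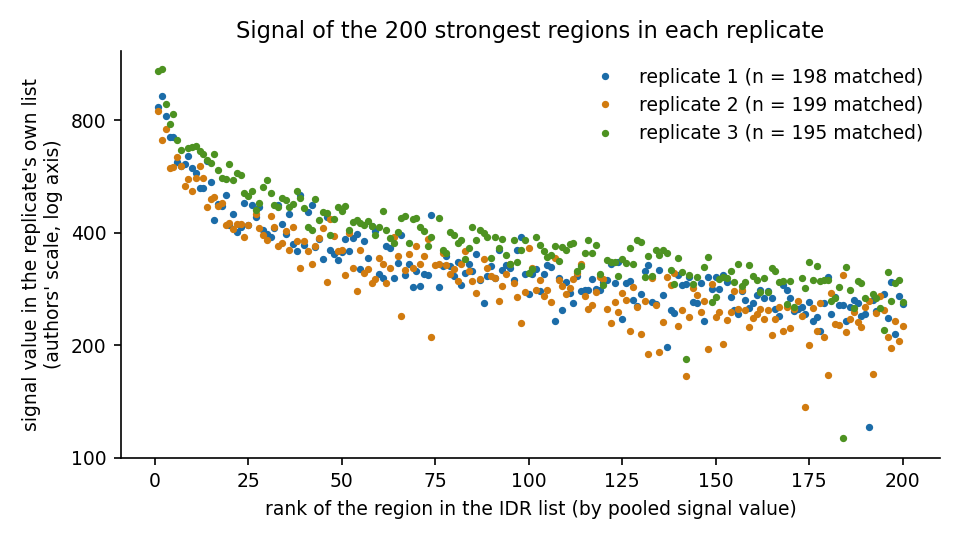
Signal value in each replicate's own list (vertical axis, log scale, authors' scale) against the rank of the region in the IDR list, for the 198, 199 and 195 of the 200 regions that had a summit within 100 bp among the 3767 strongest of replicates 1, 2 and 3. The points fall with rank in every replicate, from 870, 849 and 1085 at the first region to 258, 225 and 261 at rank 200.

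A summit within 100 bp was found among the 3767 strongest of every replicate for 193 of the 200 regions, 96.5% (95% Wilson interval 93 to 98.3). Over the whole list this share was 51.5%, and over the regions below rank 200 it was 49%. Of the 200, 141 were also among the 200 strongest of each replicate's own list. The SD of a region's rank over the 3 replicates had a median of 7.10 for ranks 1 to 50, 26.6 for ranks 51 to 100, 39.2 for ranks 101 to 150 and 41.4 for ranks 151 to 200. The coefficient of variation of the signal did not follow rank, with medians of 13.5%, 14.9%, 14.9% and 13.1% in the same groups, and the signal values lie farther apart at the top. Among the 193 regions matched in every replicate, that at Dic1 and Elp6, rank 184, had the largest SD of rank. This region had ranks 184, 89 and 1418 and signal values of 257, 309 and 113 in replicates 1, 2 and 3. It was picked out after its values were seen.

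Of the 7 regions that missed a match, 4 had an overlapping region with its summit 102 to 129 bp away. The other 3 had no overlapping region in 1 replicate although their ranks in the others were high. The region ranked 8, with its summit 75 bp downstream of the PNPase start site (chr3R:31404479-31404872), ranked 10 and 12 in replicates 1 and 2, while the nearest summit of replicate 3 was 883 bp away. PNPase encodes polynucleotide phosphorylase, an RNA-degrading enzyme of mitochondria. The region ranked 26, between Tcs5 and CHMP2B (chr3L:5139327-5139675), ranked 23 and 26 in replicates 1 and 3, while the nearest summit of replicate 2 was 5099 bp away. The region ranked 146, near CG11349 (chr3L:4474961-4475307), had its nearest summit of replicate 3 at 13270 bp. These absences are from lists of 30000 candidate regions, and what they come from was not tested.

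The strongest regions lay at promoters more often than the rest of the list. A promoter summit is one within 500 bp of the transcription start site (TSS) of a protein-coding gene. Of the 200, 108 (54%, 95% Wilson interval 47.1 to 60.8) were promoter summits, against 1327 of 3567 (37.2%) of the rest, 1.45 times as often (Fisher's exact test, 2-sided, adjusted by Benjamini-Hochberg for 8 classes, p = 2.4e-05). Divergent promoters, with start sites on both strands within 500 bp, held 28 of the 200 (14%) against 6.20%, a ratio of 2.26 (adjusted exact p = 0.00041). Introns held 64 (32%) against 42.6% (ratio 0.751, adjusted exact p = 0.00847). Intergenic sequence held 22 (11%) against 15.8% (adjusted exact p = 0.142). Regions of 1 genome do not stand in for replicate embryos, and such p-values are statements on the list.

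Of the remaining summits, 5 lay in exons of noncoding RNA genes and 1 in coding sequence, that of the phosphodiesterase gene Pde1c (chr2L:11816414-11816749, rank 135). No summit was classed in a 5′ or 3′ UTR, which allows a share of up to 1.88% by the Wilson interval. The noncoding genes included lncRNA:Vinr at rank 4, lncRNA:CR31840 at rank 5 and lncRNA:CR46035, inside osa, at rank 47. Within the 200 the promoter share did not follow rank, at 52%, 66%, 46% and 52% in the 4 groups of 50, and it was 49% for the next 200 regions. Each replicate's own 200 strongest regions gave 55%, 53.5% and 56%, or 54.8% ± 1.26 (SD, n = 3), where its remaining regions down to rank 3767 gave 39.6% ± 0.896.

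**Figure D2:**
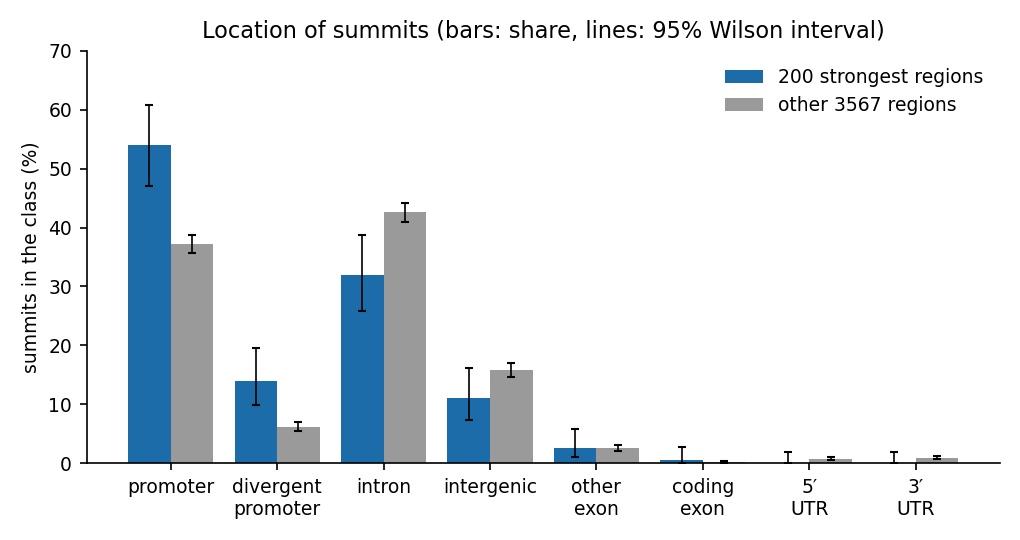
Share of summits in each annotation class (vertical axis, percent) for the 200 strongest regions (blue) and the other 3567 regions (grey), with 95% Wilson intervals as lines. Divergent promoters are also counted under promoter. The promoter bar stands at 54% against 37.2% and the intron bar at 32% against 42.6%.

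Within promoters the strongest summits sat upstream of the start site. The summit lay upstream of the nearest TSS in 97 of 108 cases (89.8%, 95% Wilson interval 82.7 to 94.2) against 909 of 1327 (68.5%) for promoter summits of the rest, 1.31 times as often (Fisher's exact test of this single comparison, 2-sided, p = 5.77e-07). This comparison was chosen after the data were seen. Against the rest of the list above its median rank alone the ratio was smaller, at 1.16 (exact p = 0.00292). With the 400 strongest regions set against the others it was 1.34 (exact p = 3.56e-12). Promoter summits just below the limit thus shared the upstream place, which was not particular to the strongest regions. The median position was 174 bp upstream (quartiles 236 and 97), against 85 bp upstream for the rest, whose upper quartile was 32 bp downstream. A summit between divergent genes is upstream by its place. With promoters of 1 strand alone it was 75 of 80 (93.8%) against 67.6% (ratio 1.39, exact p = 5.93e-08). Positions 100 to 300 bp upstream held 35.2% and 28.7% of the promoter summits in their 100 bp bins, against 19.7% and 12.4% for the rest, and the first 100 bp downstream held 5.56% against 15.9%.

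**Figure D3:**
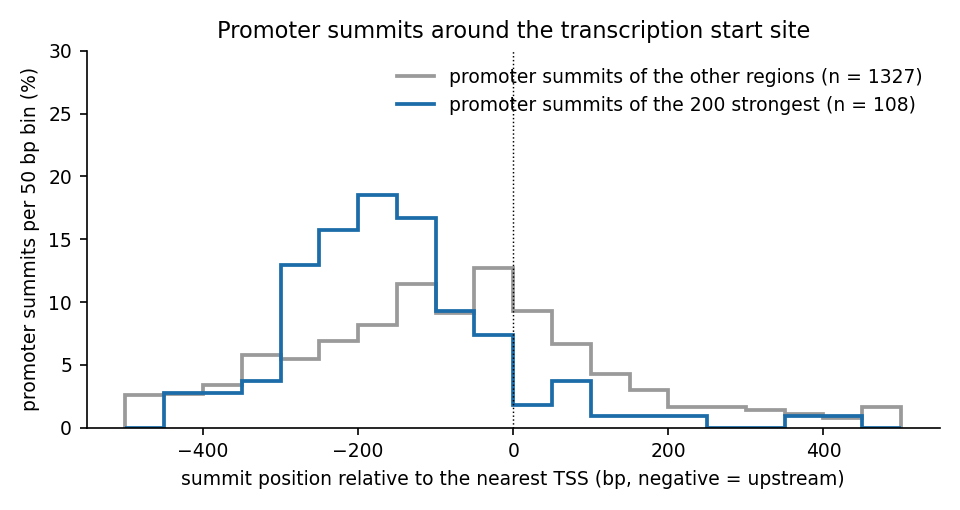
Position of promoter summits relative to the nearest TSS (horizontal axis, bp, negative is upstream) as percent of promoter summits per 50 bp bin, for 108 summits of the 200 strongest regions (blue) and 1327 of the rest (grey). The blue outline peaks 100 to 300 bp upstream, with 97 of 108 summits left of the dotted line at the TSS.

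By chromosome arm, 2L held 53 of the 200 regions (26.5%, 95% Wilson interval 20.9 to 33, against 19.1% of the rest) and 3L held 28 (14%, interval 9.87 to 19.5, against 23.7%). Arm 3R held 42, 2R and X 38 each, and chromosome 4 a single one, near zfh2. These shares were not tested.

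Of 13945 protein-coding genes, 260 (1.86%) had 1 of the 200 summits between 2 kb upstream and their end, and 138 had 1 within 500 bp of a start site. Among the 50 strongest regions, 26 were promoter summits, 16 intronic, 5 intergenic and 3 in noncoding exons. Promoter summits, besides those of Ugalt and PNPase, included Gapdh2 (rank 16), encoding a glycolytic enzyme, with 433, 499 and 651 as signal values in replicates 1, 2 and 3. They also included mRpS23 (shared with CenG1A, rank 15) and mRpL41 (rank 36), encoding mitochondrial ribosomal proteins, and Hsp83 (rank 41), encoding the fly Hsp90 chaperone. Alg3 (rank 46) encodes a mannosyltransferase of N-glycosylation, RluA-1 (rank 44) a pseudouridine synthase, Fkbp14 (rank 27) a prolyl isomerase, and larp (rank 49) an RNA-binding protein. Other promoter regions lay at px (rank 6), CG31145 (rank 11), Tina-1 (rank 13), Chro and Ssl1 (rank 14, Ssl1 encoding a subunit of the general factor TFIIH), CG18549 (rank 18) and CG1888 (rank 21). Further down were brwl (rank 22), CG11309 and CG7632 (rank 29), CG13390 and CG17294 (rank 32), Atf3 (rank 34, a leucine zipper factor), Tcs5 and CHMP2B (rank 26, the latter of the ESCRT-III complex), CG5335 (rank 45) and the Toll receptor gene Toll-7 (rank 42).

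The intronic regions among these 50 lay in genes of several roles. They belonged to cno (rank 23), encoding the junctional protein Canoe, to the kinase genes Lk6 (rank 28) and Tlk (rank 43), and to sbb (rank 10), encoding a corepressor. Trl (rank 9) encodes the GAGA factor, and its signal values were 642, 557 and 676 in replicates 1, 2 and 3, with ranks between 7 and 11. The others were CG32772 (rank 17), HmgZ with HmgD next to it (rank 19), CG9663 with CG3277 (rank 25), CG12769 (rank 31), Lrch (rank 33), chif with Hyls1 and CG4455 (rank 35), Reph (rank 38) and the nuclear receptor gene Hr3 (rank 37). The chif product is the fly partner of the replication kinase Cdc7. Outside genes, a region lay between jp, the fly junctophilin gene, and brwl (rank 7), 1 at DNAlig3 (rank 24), and others nearest to CG13323 (rank 12), tara (rank 20) and eEF1gamma (rank 48). Ranks 4 and 5 had CG4004 and hll as the genes with the nearest start site.

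Several genes held more than 1 of the 200 regions. The gene simj, encoding a subunit of the NuRD chromatin remodeller, had 4 in its 25996 bp (ranks 50, 112, 172 and 191), of which ranks 50 and 191 had summits 206 bp apart. The one at rank 191 gave 121 and 263 in replicates 1 and 2 and was not matched in replicate 3, while that at rank 50 gave 355, 360 and 459. At brwl there were 3, of which the pair ranked 7 and 22 had summits 1212 bp apart and lay upstream of both jp and brwl, with 605, 603 and 666 at the first and 401, 423 and 577 at the second in replicates 1, 2 and 3. A pair lay at each of ph-p, px, sbb, ush, for, osp, CG5953 and CG1677. The regions at ph-p (ranks 39 and 70) were 662 bp apart, and those at ush (ranks 3 and 167) 4817 bp. In all, 22 of the 200 had another of them within 5000 bp. With any region of the list counted, 63% had a neighbour within 5000 bp, against 60.1% of the rest.

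Gene lists for tissues and cellular functions were counted at these regions, and the lists were drawn up with earlier results of these data known. The share over all genes was 1.86%, and with lists of 6 to 93 genes a count of 0 or 1 shows neither more nor less than that. None of 23 muscle identity factors and none of 20 myoblast fusion genes had a region. The region of nau itself was outside the 200, at rank 684 with a signal value of 419. Mesoderm gave 1 of 21 (4.76%), which was Mef2, a muscle differentiation factor, with the region ranked 30 lying 1016 bp upstream of it (chr2R:9959710-9960124). It gave 398, 384 and 555 in replicates 1, 2 and 3, and it was at the same time a promoter summit of Pdrg1 and Pal1, so the gene it belongs to cannot be told apart from its position. Sarcomere genes gave 1 of 31 (3.23%), an intronic region in Msp300, a giant nesprin-family protein (chr2L:5149908-5150340, rank 97), with 361, 270 and 335 in the replicates. Muscle attachment gave 2 of 24 (8.33%), both at promoters. They were Pax, encoding paxillin (rank 63), and by, encoding tensin (rank 80), linkers of integrins to actin. Pax gave 364, 322 and 388 and by gave 306, 320 and 396 in replicates 1, 2 and 3.

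Cytosolic ribosomal protein genes gave 7 of 93 (7.53%), among them RpL7 (rank 59), RpS27 (66), RpLP0 (122), RpS10b (152), RpS4 (179) and RpS25 (180). Any region of the whole list lay at 59 of these 93 genes, and at 2497 of all 13945 genes. The summits of the 7 were close to the start site. In 6 of the 7 the summit lay within 50 bp of the gene's own TSS, against 4 of the other 101 promoter summits among the 200 and their nearest TSS. At RpS27, 2 bp from the start, the replicates gave 396, 240 and 439. The contrast was noticed after the values were seen and has no test. Mitochondrial ribosomal protein genes gave 3 of 73 (4.11%), adding mRpL23 (rank 111) to those above. Translation factors gave 3 of 54 (5.56%), namely eIF2Bbeta upstream of which the Ugalt region lies, eEF1gamma at its own promoter (rank 132) and eIF4EHP (rank 142). Glycolysis gave 3 of 14 (21.4%), Gapdh2, Hex-A (rank 129) and Eno (rank 198), with summits 166, 217 and 258 bp upstream of the start site. Hex-A gave 255, 253 and 382 and Eno 214, 233 and 294 in replicates 1, 2 and 3. Regions of the whole list lay at 14 of the 73 mitochondrial ribosomal protein genes, 15 of the 54 translation factors and 6 of the 14 glycolysis genes.

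Chromatin and insulator factors gave 9 of 53 genes (17%), while 20 of the 53 had some region of the whole list. The 9 were Trl, Chro, which encodes an interband protein, HmgD and HmgZ, which encode high mobility group proteins, and ph-p, a Polycomb complex gene. The others were the gene of heterochromatin protein HP1a, osa of the Brahma remodelling complex, trx (rank 89), encoding a histone methyltransferase, and Dsp1 (rank 183), encoding another high mobility group protein. HmgD and HmgZ were both counted at the same region, that ranked 19. Chro and ph-p were the only ones of these 9 with a summit within 500 bp of their own start site, and that of HP1a was 1898 bp upstream, at the promoters of CG8360 and CG8372. Heat shock and chaperone genes gave 2 of 18 (11.1%), Hsp83 and Hsp27 (rank 62). No proteasome gene of 48, no ubiquitous cytoskeleton gene of 19 and no cell cycle gene of 23 had a region. Long genes and genes near others collect more summits, and these counts were neither adjusted for that nor tested.

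Of the signalling and patterning lists, the one of GATA factors and their cofactor gave 1 of 6 (16.7%), which was ush, the cofactor. The ecdysone and nuclear receptor list gave 1 of 24 (4.17%), Hr3, and the Ras and FGF list 1 of 28 (3.57%), the kinase gene Raf (rank 71). Notch and Wnt signalling gave 1 of 22 each (4.55%), mam (rank 199) and the kinase gene sgg (rank 162). The Hox list gave 1 of 12 (8.33%), Scr (rank 120), and the list of bHLH factors 1 of 28 (3.57%), sim (rank 117). Among other cell types, the neural list gave 1 of 22 (4.55%), elav, encoding a neuronal RNA-binding protein (rank 72), which was also the 1 of 30 spliceosome and RNA-binding genes (3.33%). The gut list gave 1 of 13 (7.69%), fkh, encoding a forkhead factor of the gut and salivary gland (rank 51), and the fat body and hemocyte list 1 of 18 (5.56%), again ush. The region at fkh was the most GC-rich of the 200, at 63.2%, with 386, 308 and 473 in the replicates. That at elav gave 310, 346 and 404. No gene had a region among 20 of the Dpp list, 14 of epidermis, 12 of trachea and 12 of the germline.

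The bases under the strongest summits were AT-rich with GC-rich shoulders. GC content in the 50 bp around the summit was 31.6% ± 0.751 (SE over 200 regions), against 37.4% ± 0.196 for the rest. It rose to 44.9% ± 0.848 at 200 bp on one side and 46% ± 0.806 on the other, against 42.3% ± 0.193 and 43% ± 0.190. Within 100 bp of the summit the median was 35.3% (quartiles 31.3 and 40.4), against 37.8% (32.8 and 44.3). The next 200 regions also had a median of 35.3%, so the low value was not particular to the 200. It was 36.6% for the 400 after them, 37.3% for the 800 after those and 38.8% for the last 2167. The difference between the 200 and the rest was present at promoters, with medians of 34.3% and 39.3%. It was smaller elsewhere, with 35.8% and 37.3%. Composition was not tested here and moves with the words described next.

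**Figure D4:**
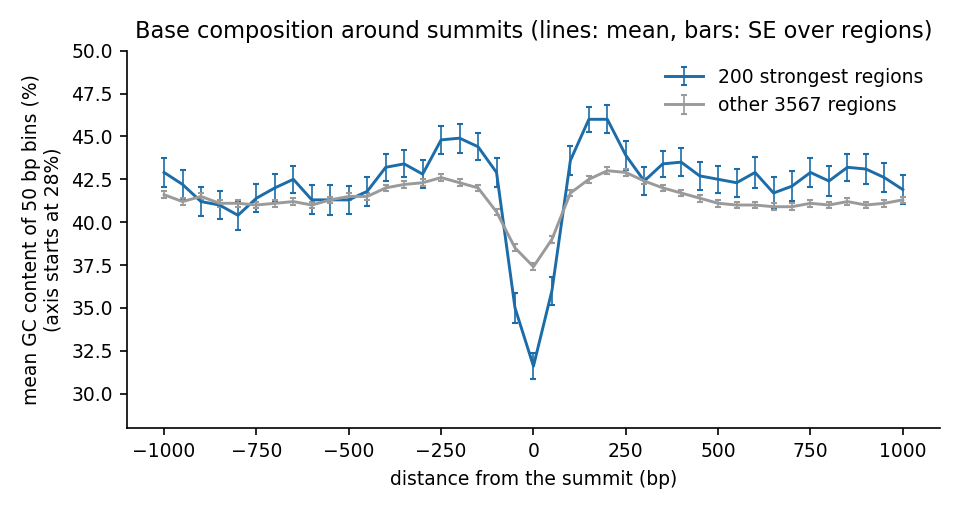
Mean GC content in 50 bp bins (vertical axis, percent, starting at 28%) by distance from the summit (horizontal axis, bp) for the 200 strongest regions (blue) and the other 3567 regions (grey), with SE over regions as bars. The blue line dips to 31.6% at the summit and reaches 46% on its shoulder, a deeper dip than the grey line's 37.4%.

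No enrichment of the MyoD-type E-box was detected among the strongest regions. CAGCTG was within 100 bp of 22 of the 200 summits (11%, 95% Wilson interval 7.38 to 16.1), against 15.4% of the rest, 0.716 times as often (Fisher's exact test, 2-sided, adjusted by Benjamini-Hochberg for 28 words, p = 0.503). In 352 windows 1000 bp beside the 200 regions it was present in 11.6% (ratio 0.944, adjusted exact p = 1). The interval holds both of these shares, so no difference was detectable with 200 regions. By rank the share was 10%, 14%, 10% and 10% in the groups of 50, and 8.5% for the next 200 regions. It was 12.2% for the 400 after them, 16.6% for the 800 after those and 16.1% for the last 2167. These shares by rank were not tested. In windows of 30 to 40% GC alone, a range chosen after the data were seen, the ratio to the rest was 1.03, and within 250 bp of the summit it was 1.06. Within 50 bp it was 0.502 (adjusted exact p = 0.196). With the 400 strongest regions in place of 200 it was 0.618 and passed as lower (adjusted exact p = 0.0315, range over its alternatives 0.0315 to 1). Any of the 10 forms of CANNTG was present at 125 of the 200 (62.5%) and at 66.2% of the rest.

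The 22 regions with CAGCTG lay at different kinds of genes. Promoters held 13 of them, such as those of mRpL41, Alg3, RpS27 and Nup37, Lpin, REPTOR, sgg and dnc. Introns of Lrch, Reph, CG5953, Msp300, BicD, px and CG46385 held 7. The coding exon of Pde1c and an intergenic place near CG15615 held the others. Lpin, REPTOR, dnc, BicD, Pde1c and those named by CG numbers in this paragraph were chosen after their values were seen. Msp300 was the only one of the muscle list genes among these 22.

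None of the 28 words tested, the 10 E-boxes and 18 words of other factors and core promoters, passed the test between the 200 regions and the rest. By Fisher's exact test 0 passed after adjustment (0%), and 3 had an unadjusted p under 0.05. Those were a run of CA repeats, in 2% against 6.56% of windows (adjusted exact p = 0.149), the TATA word TATAAA, in 37.5% against 28.9% (adjusted exact p = 0.149), and the E-box CAAGTG, in 8.5% against 13.6% (adjusted exact p = 0.388). The GAGA word GAGAGA was in 9% against 13.8% (adjusted exact p = 0.390). Words were searched on both strands.

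Against the sequence 1000 bp beside them, 2 of the 28 words (7.14%) were more frequent in the 200 regions. The test treated regions and flanks as independent windows, although the flanks lie beside the same regions. The forkhead (Fox) word, which was searched as ATAAATA, or the form ATAAACA, or the form GTAAATA, or the form GTAAACA, was in 44.5% of the regions against 25.3% of these flanks (ratio 1.76, adjusted exact p = 0.000139), and in 40% of the rest of the list. TATAAA was in 37.5% against 22.7% of the flanks (ratio 1.65, adjusted exact p = 0.00365). The first of these sequences and TATAAA can overlap. The word of Mef2 was in 12% against 5.97% (ratio 2.01, adjusted exact p = 0.107). Flanks had a median GC content of 41.8% where the regions had 35.3%. With both kept to 30 to 40% GC, 110 regions and 116 flanks, a range set with the data already seen, 0 words passed by Fisher's exact test and 1 had an unadjusted p under 0.05. That 1 was the word of Mef2, in 16.4% against 5.17% (ratio 3.16, adjusted exact p = 0.241). The forkhead word was then in 46.4% against 41.4% (adjusted exact p = 1) and TATAAA in 40% against 37.1% (adjusted exact p = 1). The strongest printable regions with each word are shown, with the word in capitals. That at ush and cbt is on the minus strand and reads TTTATA on the strand printed.
forkhead word at Ugalt, rank 2, chrX:2703885-2703941, plus strand: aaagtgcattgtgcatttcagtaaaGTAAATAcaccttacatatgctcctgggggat
TATA word at ush and cbt, rank 3, chr2L:481066-481121, plus strand: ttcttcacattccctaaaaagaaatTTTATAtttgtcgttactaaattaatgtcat

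A scan of all hexamers, each merged with its reverse complement, found 8 (0.385%) that differed between the 200 regions and the rest by Fisher's exact test with Benjamini-Hochberg adjustment. At unadjusted p under 0.05 there were 186. Of the 8, 7 were more frequent in the 200 and 1, AGCGCG, was less frequent, in 0.500% against 5.86% (adjusted exact p = 0.0493). GGCGTA was in 14% (95% Wilson interval 9.87 to 19.5) against 3.56%, a ratio of 3.93 (adjusted exact p = 9.57e-06). CTACGC, which overlaps it, was in 12% against 4.23% (ratio 2.83, adjusted exact p = 0.00602). The AT-rich TTAAAA was in 57% against 36.6% (ratio 1.56, adjusted exact p = 2.02e-05). The other AT-rich hexamers were CTTAAA, in 33% against 19.2%, AACTTA, in 26% against 14.2%, ATATTA, in 36.5% against 23.6%, and TCTTAA, in 25% against 14.5% (adjusted exact p from 0.00496 to 0.0432). The next 2 hexamers by p, ACACAC and ACGCGA, were less frequent in the 200, at 9.50% against 19.3% and 0.500% against 5.61%, and did not pass (adjusted exact p = 0.0585 for both). The count of hexamers that passed moved with the regions compared. With 1 of the 3 replicates left out and regions required to match in both others, 3 passed in each case, from 194 to 197 of the 200 regions and 2035 to 2169 of the rest. The AT-rich one of these 3 was TTAAAA, and the others were GGCGTA and the hexamer CTACGC that overlaps it. The same 3 hexamers passed with the 100 strongest regions and against the rest of the list above its median rank alone. In windows of 30 to 40% GC, GGCGTA and CTACGC were the 2 that passed, and TTAAAA gave a ratio of 1.39 (adjusted exact p = 0.131). At promoter summits alone 16 passed, 7 of them among the 8, while at summits outside promoters none did by the same test and 82 had an unadjusted p under 0.05. Outside promoters GGCGTA was in 7.61% of the regions against 3.57% of the rest, and at promoters in 19.4% against 3.54%. Whether the 2 places differ was not tested.

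The words GGCGTA and CTACGC were concentrated at the top of the list. One or both were at 35 of the 200 regions (17.5%, 95% Wilson interval 12.9 to 23.4) and at 6.64% of the rest. In the 4 groups of 50 the share was 18%, 26%, 16% and 10%. It was 5% for the next 200 regions, 4.75% for the 400 after them, 7.12% for the 800 after those and 6.97% for the last 2167. Flanks of the 200 held them in 5.97% and the 5000 lowest regions of the pooled candidate list in 6.92%. These shares describe hexamers already picked for their difference and carry no test. The joined word CTACGCC was at 17 of the 200 (8.5%) and at 1.12% of the rest. No factor is assigned to it here.

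The hexamer GGCGTA had a place and an orientation relative to the summit. Read along its own strand, 19 of the 49 copies within 250 bp of the 200 summits lay 50 to 100 bp before the summit, which is 1.90 copies per kb against 0.100 to 0.500 in the other 50 bp bins. For the rest of the list, 44 of 351 copies lay in that bin, 0.247 per kb against 0.163 to 0.241 in the others. At promoters with start sites on 1 strand, 5 of 12 copies in the 200 regions were on the strand of the gene and 7 on the other. These positions were described after the hexamer had been picked and carry no test. TTAAAA was centred instead. Its density was 5.5 copies per kb in the 50 bp next to the summit and 3.25 in the following 50 bp, against 3.18 and 2.67 in the rest. From 150 bp on it ranged from 1.45 to 2.5 per kb, against 1.83 to 2.23.

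**Figure D5:**
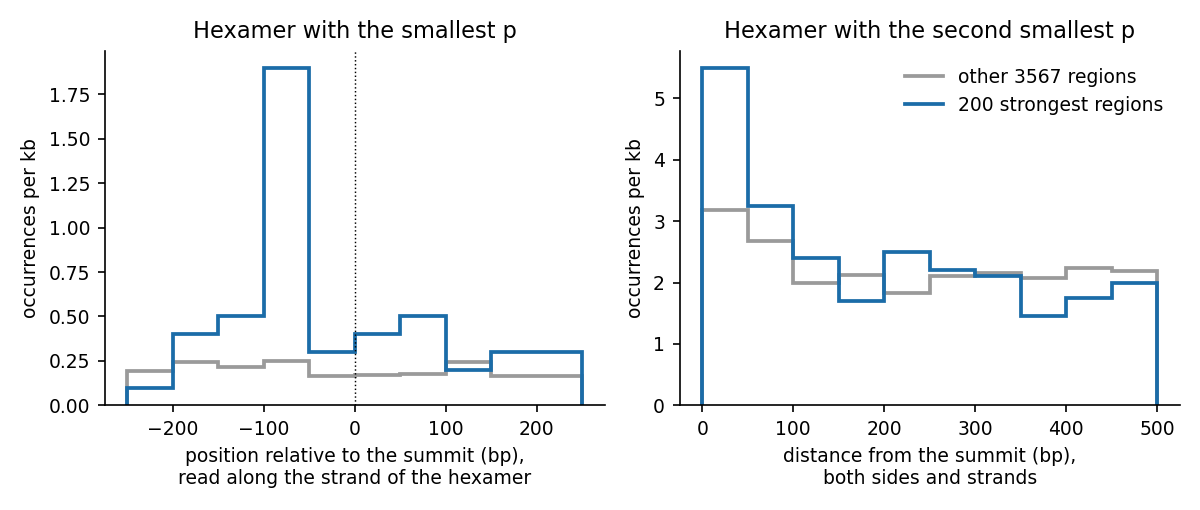
Copies per kb (vertical axes) of the 2 hexamers with the smallest p, GGCGTA on the left by position along its own strand relative to the summit (bp) and TTAAAA on the right by distance from the summit (bp), for the 200 strongest regions (blue) and the other 3567 regions (grey). The left outline has a single high bin 50 to 100 bp before the summit at 1.90 per kb, and the right one is highest within 50 bp at 5.50 per kb.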

How the data were processed

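Anti-GFP ChIP-seq of nau-eGFP embryos was taken from region lists in the narrowPeak format that the authors deposited on the builds dm6 and dm3. These are 1 list of 30000 candidate regions per replicate, 1 from the pooled replicates, and the IDR-thresholded list of 3767 regions. The score used for ranking is the signal value as the authors deposited it, and no label or header names its scale. The −log10 q values are as deposited and entered no test. The distance of each summit from its region start, another measure, is as the authors deposited it. The sources used here name no aligner, no peak caller and no IDR threshold. The age label holds no plausible range, so the age in the source name was used.

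Regions were sorted by signal value with ties by position. The members and the gene lists were chosen with earlier results of these data known. Genes and transcription start sites came from Ensembl release 115 (BDGP6.54, 13945 protein-coding genes), and sequence from the RefSeq genome of dm6. Positions are 1-based. Classes were assigned in the order promoter, 5′ UTR, 3′ UTR, coding sequence, exon of another kind, intron, intergenic. A region matched a replicate when a summit lay within 100 bp among that replicate's 3767 strongest. Both strands of the 100 bp on either side of a summit were searched for words, as were those of 352 flank windows centred 1000 bp away, kept where they were 300 bp or more from any summit of the list. Significance was judged at 0.05 on Benjamini-Hochberg adjusted p-values of Fisher's exact test, always 2-sided. The word and hexamer tests were tried on simulated data. Nothing used here gives the read depth, which is unknown, and intervals cover counting error only. Gene list names were matched to the annotation in 789 cases by symbol and in 15 by synonym, and 6 were not matched.

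The named genes were nau, those at the 50 strongest regions, list genes with a region and those at the limit, with others said to be chosen later. A few of them are not reported here. The test of summits upstream of start sites, promoters of 1 strand, the 50 and 250 bp hexamer windows, the GC range, the joined word and the descriptions by rank and position were chosen after the data were seen. Alternatives covered the number of regions, close summits, window and promoter widths, flanks, GC range, gene assignment, builds and leaving out each replicate. Tools were scipy 1.17.1 for tests and intervals, pandas 2.3.3 and numpy 2.4.6 for the tables and matplotlib 3.10.9 for plots, run in Python 3.11.15.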

Additional observations from a re-analysis of the deposited data

How the results depend on the processing

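The ratio of promoter shares kept its direction and its call under all 9 alternatives (1.39 to 1.57), as did the divergent promoter ratio (1.76 to 2.57), the intron ratio (0.653 to 0.791) and, over 10 alternatives, the share upstream of the TSS (1.16 to 1.39). Counts of words and hexamers moved more. Against the rest of the list 0 of 28 words passed, and 1 did with the 400 strongest regions, CAGCTG, which was less frequent (ratio 0.618, adjusted exact p = 0.0315, range over its alternatives 0.0315 to 1). The CAGCTG ratio changed sides to 1.06 within 250 bp of the summit and to 1.03 at 30 to 40% GC. Against flanks the 2 passing words became 4 within 50 bp (GAGAGA, CA repeats, TATAAA and the forkhead word) and 0 at 30 to 40% GC. Within 250 bp 3 passed (the core promoter word Ohler6, GAGAGA and the forkhead word). Against flanks outside coding exons CA repeats and the forkhead word passed, so TATAAA passed in neither. In the main test GAGAGA and CA repeats were less frequent in the 200 than in flanks (ratios 0.812 and 0.282) and did not pass. Counts of passing words take more frequent and less frequent words together. The 8 hexamers became 3 with the 100 strongest regions and against the rest above the median rank, 15 with the 400 strongest, 13 within 50 bp, 4 within 250 bp, 16 at promoters, 0 outside promoters and 2 at 30 to 40% GC. There were 3 without each replicate in turn. There the pooled ranking was kept and regions had to match in both other replicates, which left 2035 to 2169 of the rest. Within 50 bp GGCGTA gave a ratio of 2.02 (adjusted exact p = 0.722), the copies at 50 to 100 bp being outside that window. The share of regions matched in all replicates was 85.5% within 50 bp, 98.5% within 200 bp or by overlap, 70.5% in the 200 strongest of each replicate, and 97.0% to 98.5% without a replicate. The count of 260 genes was 138 for promoters alone, 140 for the 100 strongest, 467 for the 400 strongest, and 254 without each replicate in turn. Where no value above shows the cause of a change, the cause was not tested. With 1 group, no pairing between conditions was possible. The flanks lie beside the same regions, and the test against them did not use this pairing.

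The limits are 1 tagged line, no untagged control embryos, whole embryos rather than muscle cells, and signal values on a scale the sources used here do not name. With 200 regions, shares carry intervals of several percentage points.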
